A study of Oryza sativa with 12 samples.

Results

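Sucrose reaches the rice culm, the jointed stem, through the phloem, and 2 enzyme families work on it in opposite directions. Invertases split sucrose irreversibly into glucose and fructose: cell wall invertases act outside the cell and are known for unloading sugar into sinks, and vacuolar invertases act inside the vacuole and are known for supplying hexoses to expanding cells. Sucrose phosphate synthase (SPS) makes sucrose 6-phosphate from UDP-glucose and fructose 6-phosphate, and sucrose phosphatase then releases sucrose. The genes described here are 10 loci chosen by identifier from the 55986 listed in the deposited table. They are 3 cell wall invertases (CIN1, LOC_Os02g33110; CIN2, also called GIF1, LOC_Os04g33740; CIN3, LOC_Os04g33720), 2 vacuolar invertases (LOC_Os02g01590 and LOC_Os04g45290) and 5 SPS loci (LOC_Os01g69030, LOC_Os02g09170, LOC_Os06g43630, LOC_Os08g20660 and LOC_Os11g12810).

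The samples were culms of japonica rice, cultivar Zhonghua 11, taken at heading, with 3 RNA libraries in each of 4 groups. The mutant groups carry labels for both TAC4L and TAC4 (double-KO here), for TAC4 alone (TAC4-KO) and for TAC4L alone (TAC4L-KO), and the fourth group is wild type (WT). TAC4 is a known regulator of tiller angle. The titles call the mutants knockouts and the genotype field calls them knockdowns, and neither says how many independent lines were used or whether each replicate was another plant. P-values therefore reflect spread among these libraries, which may be technical.

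Values are FPKM, fragments scaled to gene length and to the library's total, so levels can be set side by side between genes. Depth inferred from the values was 9.8 to 25.2 M fragments (M, mega), lowest in WT replicate 1. TAC4 itself (LOC_Os02g25230) averaged 15.0 ± 1.68 FPKM in double-KO, 11.4 ± 2.21 FPKM in TAC4-KO, 8.8 ± 0.893 FPKM in TAC4L-KO and 5.89 ± 1.31 FPKM in WT (SD, n = 3 each), so its level goes against the word knockdown. TAC4L (LOC_Os04g19140) stayed under 1 FPKM in every library. The libraries are named here by their labels. The 3 cellulose synthase genes of secondary walls, taken as culm markers, were above 0 in every group, and fell in double-KO (3 of 3 called by limma, and in each single mutant 0 called and 0 at an unadjusted p under 0.05), with a summed level of 38.0 to 92.7 FPKM in double-KO, 501 to 1374.6 in TAC4-KO, 1007.8 to 1656.8 in TAC4L-KO and 598 to 1039.3 in WT. Of all tested genes, 27.3% were called lower in double-KO against WT, and 34.9% were called in TAC4-KO and 7.18% in TAC4L-KO.

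Of the 10 genes, 7 passed the expression filter (mean FPKM of 1 or more in the 12 libraries) and 3 did not. Changes below are log2 differences of FPKM + 1, mutant minus WT unless said otherwise, from limma with Benjamini-Hochberg adjustment over all 19184 genes tested. Called genes had an adjusted p under 0.05. An exact permutation test of 3 libraries against 3 cannot give a two-sided p below 0.1.

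The 2 invertases that passed the filter fell, and the SPS gene on chromosome 11 rose, in both lines labelled for TAC4. In double-KO against WT, 4 of the 7 tested genes were called, 2 lower (CIN1 and the chromosome 2 vacuolar invertase) and 2 higher (the chromosome 11 SPS and SPS2), where 47.4% of all tested genes were called. In TAC4-KO against WT, 3 of 7 were called, the same 2 invertases lower and the chromosome 11 SPS higher, where 34.9% of all tested genes were called. In TAC4L-KO against WT, 1 of 7 was called, the chromosome 2 vacuolar invertase, lower, where 7.18% of all tested genes were called (3.68% higher and 3.5% lower). These 3 comparisons share the WT libraries. In bulk tissue, fewer cells of a type and less RNA per cell cannot be told apart.

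**Figure D1:**
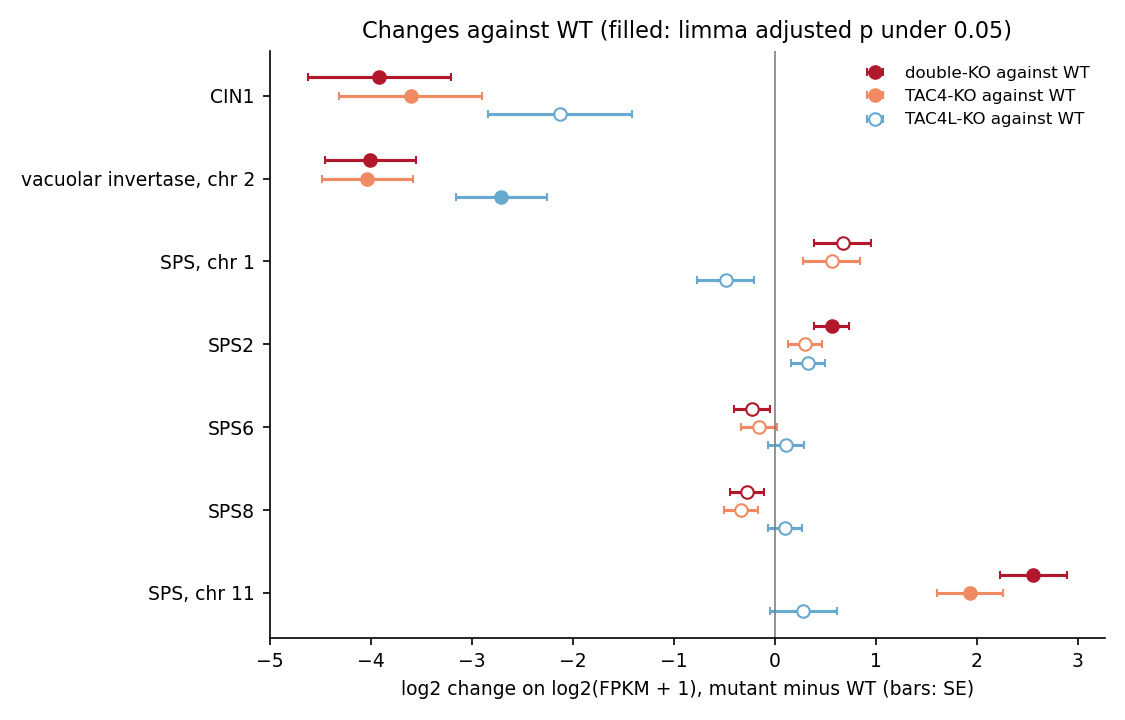
Log2 changes of the 7 tested genes in each mutant against WT, on log2(FPKM + 1), with standard errors as bars and filled points for limma adjusted p under 0.05. CIN1 and the chromosome 2 vacuolar invertase lie between -4.04 and -2.13, and the chromosome 11 SPS lies at 2.56 in double-KO, 1.93 in TAC4-KO and 0.28 in TAC4L-KO.

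CIN1 had the highest mean of the 10 genes in WT culms, where 1.62% of tested genes had a higher mean level. WT replicate 3 raised that rank: without it 5.37% of tested genes lay higher. CIN1 then averaged 106 FPKM, still the highest of the 10 genes, and the chromosome 2 vacuolar invertase 99.1. CIN1 had 6.30, 11.9 and 19.7 FPKM in double-KO replicates 1 to 3, 9.23, 20.7 and 15.8 FPKM in TAC4-KO, 106, 32.8 and 21.7 FPKM in TAC4L-KO, against 106, 105 and 594 FPKM in WT. Every double-KO and TAC4-KO library lay below every TAC4L-KO and WT library, narrowly for TAC4-KO replicate 2 (20.7 FPKM) and TAC4L-KO replicate 3 (21.7 FPKM). TAC4L-KO replicate 1 was level with WT replicates 1 and 2. Mean CIN1 was 21.3-fold lower in double-KO than in WT and 17.6-fold lower in TAC4-KO than in WT, means that WT replicate 3 raised. In limma CIN1 fell in double-KO (log2 change -3.92, SE 0.71, adjusted p = 0.00099) and in TAC4-KO (-3.61, SE 0.71, adjusted p = 0.0032). Without WT replicate 3 these changes were -3.10 and -2.79, and both stayed called, with limma adjusted p of 0.00053 to 0.0058 and 0.0018 to 0.016 over all alternatives tried.

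The change of CIN1 in TAC4L-KO against WT did not pass (-2.13, 95% interval -3.67 to -0.59, limma adjusted p = 0.08). It rested on single libraries: it was -2.78 and called without TAC4L-KO replicate 1 (limma adjusted p = 0.028, range over alternatives 0.028 to 0.27), and -1.30 without WT replicate 3. CIN1 ranked WT, TAC4L-KO, TAC4-KO, double-KO from high to low, and no neighbouring pair in that order was called. TAC4-KO against TAC4L-KO gave -1.49 (95% interval -3.03 to 0.05), and double-KO against TAC4-KO gave -0.31 (95% interval -1.85 to 1.23). Double-KO against TAC4L-KO gave -1.80 (95% interval -3.34 to -0.26) and did not pass (limma adjusted p = 0.066). It passed in a fit of only the groups compared and without TAC4L-KO replicate 3 or WT replicate 3 (range over alternatives 0.022 to 0.23, limma).

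The vacuolar invertase on chromosome 2 (LOC_Os02g01590) was low in all 3 mutants. It had 9.12, 8.88 and 1.66 FPKM in double-KO replicates 1 to 3, 5.40, 5.93 and 4.67 FPKM in TAC4-KO, 18.6, 17.5 and 9.98 FPKM in TAC4L-KO, against 127, 70.9 and 120 FPKM in WT. No mutant library reached any WT library, and the TAC4L-KO libraries all lay above those of the other mutants. Its mean was 16.2-fold lower in double-KO, 19.9-fold lower in TAC4-KO and 6.9-fold lower in TAC4L-KO than in WT. Groups that did not overlap were common: 54.3% of tested genes in double-KO against WT, 48.1% in TAC4-KO against WT and 30.2% in TAC4L-KO against WT. Such shares were not counted for other groupings of the libraries, here or for the other genes.

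By limma this vacuolar invertase fell in double-KO (log2 change -4.01, SE 0.45, adjusted p = 6.1e-05), in TAC4-KO (-4.04, SE 0.45, limma adjusted p = 0.0003) and in TAC4L-KO (-2.71, SE 0.45, limma adjusted p = 0.011). The double-KO value was -3.37 without double-KO replicate 3, the lowest library, and stayed called. The TAC4L-KO call was lost without TAC4L-KO replicate 3 (-2.44, limma adjusted p = 0.055, range over alternatives 0.0023 to 0.055). Its mean level was highest in WT and next highest in TAC4L-KO, and the lowest groups did not differ beyond their spread: double-KO minus TAC4-KO was 0.03 (95% interval -0.96 to 1.01). TAC4-KO against TAC4L-KO gave -1.33 (95% interval -2.31 to -0.34) and did not pass (limma adjusted p = 0.12, range over alternatives 0.039 to 0.35).

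**Figure D2:**
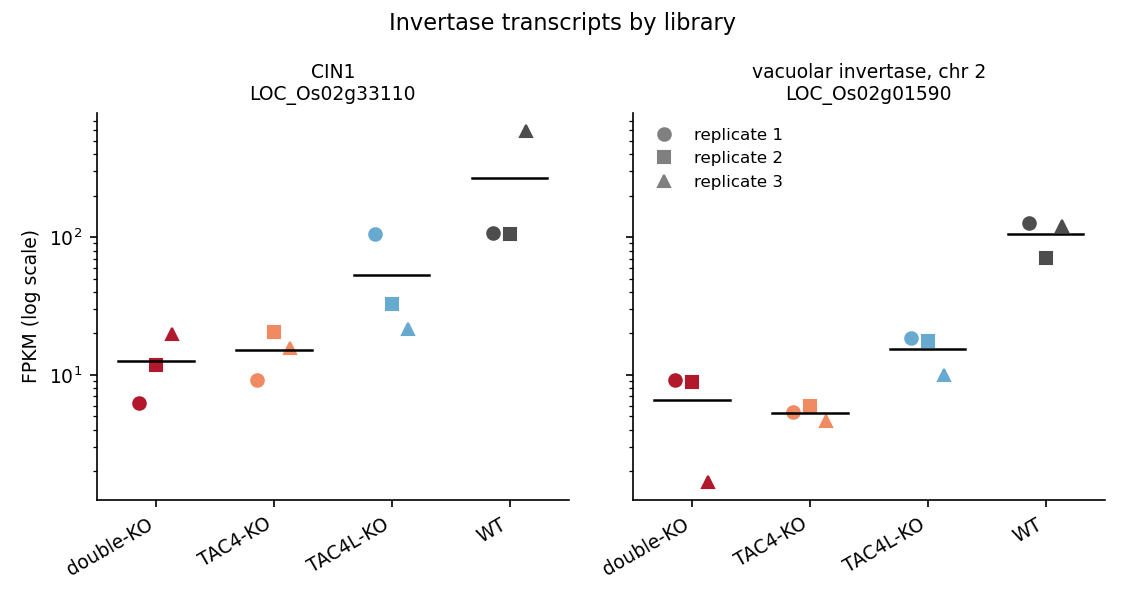
FPKM on a log axis for CIN1 and the chromosome 2 vacuolar invertase in the 12 libraries, with a line at each group mean (n = 3). CIN1 spans 6.30 to 20.7 FPKM across double-KO and TAC4-KO and 105 to 594 in WT, and the vacuolar invertase spans 1.66 to 18.6 FPKM across the mutants and 70.9 to 127 in WT.

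The double-KO departed from the sum of the single changes for this vacuolar invertase, the 1 of 7 tested genes whose interaction was called. The interaction, the double-KO change less both single-mutant changes, was a log2 difference of 2.74 (SE 0.64, limma adjusted p = 0.016), where 15.1% of all tested genes were called (4.11% higher and 11.0% lower). On this scale the single changes added to the WT level give -0.05, just below the 0 that stands for no transcript, so any detected double-KO level gives a positive interaction. With a pseudocount of 0.1 in place of 1, they add up to -0.35 in log2 (0.685 FPKM), against a double-KO mean of 2.4 in log2. The arithmetic mean in double-KO, 6.55 ± 4.24 FPKM (SD, n = 3), is another measure and lies above what that log2 mean stands for. The interaction was then 2.75 (limma adjusted p = 0.031). With the pseudocount of 1, the interaction was 3.37 without double-KO replicate 3. It was called under all 18 alternatives tried, with limma adjusted p of 0.0019 to 0.041. Apart from the pseudocount of 0.1, those alternatives kept the pseudocount of 1 and so the same floor, and are not separate support. For CIN1 the interaction was 1.81 (95% interval -0.36 to 3.99) and did not pass (limma adjusted p = 0.23).

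The remaining 3 invertases were close to absent from these culms. CIN2, known in rice for grain filling, was listed at 0 in 7 of the 12 libraries and reached at most 0.0624 FPKM, in TAC4-KO replicate 3. CIN3, its neighbour by locus number, was listed above 0 in 2 libraries, at 0.0202 FPKM in TAC4-KO replicate 3 and 0.033 in TAC4L-KO replicate 1. Counted in the smallest steps that the deposited values take, CIN2 amounted to at most 6 steps in a library and CIN3 to 1, so no difference in either was detectable at this depth.

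The vacuolar invertase on chromosome 4 (LOC_Os04g45290) stayed under 1 FPKM. It had 0.311, 0.234 and 0.191 FPKM in double-KO replicates 1 to 3, 0.0648, 0.799 and 0.12 FPKM in TAC4-KO, 0.195, 0.071 and 0.0647 FPKM in TAC4L-KO, against 0.604, 0.485 and 0.308 FPKM in WT. The 3 TAC4L-KO libraries lay below the 3 WT libraries, and TAC4-KO replicate 2 stood above every other library. With no expression filter, its changes against WT were -0.23 in double-KO, -0.18 in TAC4-KO and -0.40 in TAC4L-KO, with limma adjusted p of 0.35, 0.5 and 0.21.

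Among the SPS genes, the locus on chromosome 11 (LOC_Os11g12810) changed most. It had 28.4, 50.3 and 34.1 FPKM in double-KO replicates 1 to 3, 14.8, 22.9 and 36.8 FPKM in TAC4-KO, 6.17, 5.90 and 8.35 FPKM in TAC4L-KO, against 6.21, 7.05 and 3.48 FPKM in WT. All 6 libraries labelled for TAC4 lay above all 6 others, a split whose share over all tested genes was not counted. TAC4L-KO and WT overlapped. The mean of this SPS gene was 6.74-fold higher in double-KO than in WT and 4.45-fold higher in TAC4-KO than in WT. By limma it rose in double-KO (log2 change 2.56, SE 0.33, adjusted p = 0.00013). It also rose in TAC4-KO (1.93, SE 0.33, limma adjusted p = 0.0017), and the TAC4L-KO change did not pass (0.28, 95% interval -0.44 to 1.00, limma adjusted p = 0.6).

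The chromosome 11 SPS was also higher in double-KO than in TAC4L-KO (2.28, SE 0.33, limma adjusted p = 0.0005, with 35.0% of all tested genes called, 11.6% higher and 23.4% lower) and in TAC4-KO than in TAC4L-KO (1.65, SE 0.33, limma adjusted p = 0.027, with 3.04% called). The last call was lost with no filter, in a fit of only the groups compared, and when TAC4L-KO replicate 1 or 2 or TAC4-KO replicate 3 was left out, with limma adjusted p of 0.018 to 0.13 over the alternatives. Double-KO minus TAC4-KO was 0.63 (95% interval -0.09 to 1.35, limma adjusted p = 0.22), and the interaction was 0.36 (95% interval -0.66 to 1.37).

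The other SPS genes moved far less. SPS2 (LOC_Os02g09170) had 10.8, 11.4 and 10.9 FPKM in double-KO, 9.59, 7.79 and 9.97 FPKM in TAC4-KO, 9.23, 9.46 and 9.18 FPKM in TAC4L-KO, against 5.56, 8.76 and 7.49 FPKM in WT. The double-KO libraries lay above all others, in a narrow range, and the TAC4-KO libraries overlapped WT. SPS2 rose in double-KO (0.56, SE 0.17, limma adjusted p = 0.018), a call that did not hold when double-KO replicate 2 was left out or in a fit of only the groups compared. Its changes in TAC4-KO and TAC4L-KO, 0.30 and 0.33, did not pass.

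The SPS gene on chromosome 1 (LOC_Os01g69030) had 12.5, 15.4 and 7.76 FPKM in double-KO, 10.7, 7.84 and 13.7 FPKM in TAC4-KO, 4.17, 4.22 and 5.41 FPKM in TAC4L-KO, against 4.91, 9.48 and 6.71 FPKM in WT. WT overlapped all 3 mutants, and its changes against WT did not pass: 0.67 in double-KO (95% interval 0.06 to 1.28, limma adjusted p = 0.066), 0.56 in TAC4-KO and -0.49 in TAC4L-KO. The first passed under both other scalings between libraries (0.77 and 0.86), without double-KO replicate 3 (0.93) and without WT replicate 2 (0.89). Double-KO lay above TAC4L-KO with no overlap (1.16, SE 0.28, limma adjusted p = 0.0083).

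SPS6 (LOC_Os06g43630) and SPS8 (LOC_Os08g20660) were the most abundant SPS genes in WT and were called in none of the comparisons against WT. SPS6 had 15.2, 10.5 and 9.36 FPKM in double-KO, 11.4, 12.6 and 12.3 FPKM in TAC4-KO, 13.1, 16.9 and 14.4 FPKM in TAC4L-KO, against 13.7, 14.6 and 12.6 FPKM in WT. Its changes were -0.23 in double-KO (95% interval -0.63 to 0.17), -0.16 in TAC4-KO and 0.11 in TAC4L-KO. SPS8 had 10.1, 9.31 and 7.69 FPKM in double-KO, 9.03, 7.47 and 9.30 FPKM in TAC4-KO, 10.2, 13.2 and 12.6 FPKM in TAC4L-KO, against 10.6, 12.9 and 10.01 FPKM in WT. Its changes were -0.28 in double-KO (95% interval -0.65 to 0.10), -0.34 in TAC4-KO (-0.71 to 0.03) and 0.10 in TAC4L-KO. For both genes every TAC4-KO library lay below every WT library, narrowly for SPS6, where 48.1% of all tested genes did not overlap. The intervals leave room for a decrease of either gene in double-KO and in TAC4-KO (-0.56 to 0.24 for SPS6 in TAC4-KO).

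**Figure D3:**
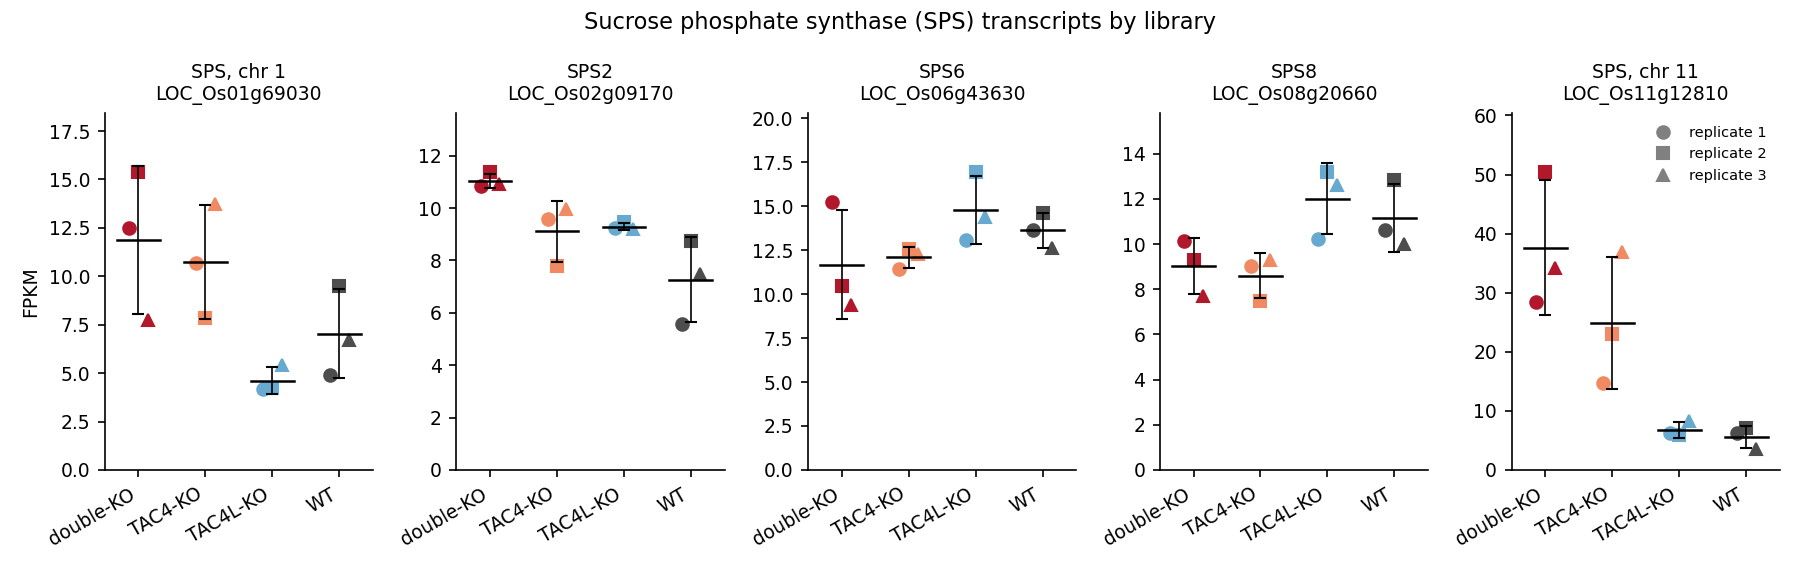
FPKM of the 5 SPS genes in the 12 libraries, each panel with its own linear axis from 0, with group means and SD bars (n = 3). The chromosome 11 gene spans 14.8 to 50.3 FPKM across double-KO and TAC4-KO and 3.48 to 8.35 across TAC4L-KO and WT, while SPS6 and SPS8 keep overlapping ranges in double-KO and WT.

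The make-up of the SPS transcripts shifted with the chromosome 11 gene. It supplied 45.9 ± 8.0% of the summed SPS level in double-KO, 36.9 ± 9.33% in TAC4-KO, 14.3 ± 2.42% in TAC4L-KO and 12.4 ± 3.36% in WT (SD, n = 3 each). It was the largest contributor in all 3 libraries of double-KO and of TAC4-KO, and in every WT library it was below SPS6 and SPS8. SPS6 supplied 14.7 ± 4.6% in double-KO, 19.0 ± 3.52% in TAC4-KO, 31.1 ± 2.68% in TAC4L-KO and 30.8 ± 2.86% in WT. These shares are descriptions and were not tested.

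**Figure D4:**
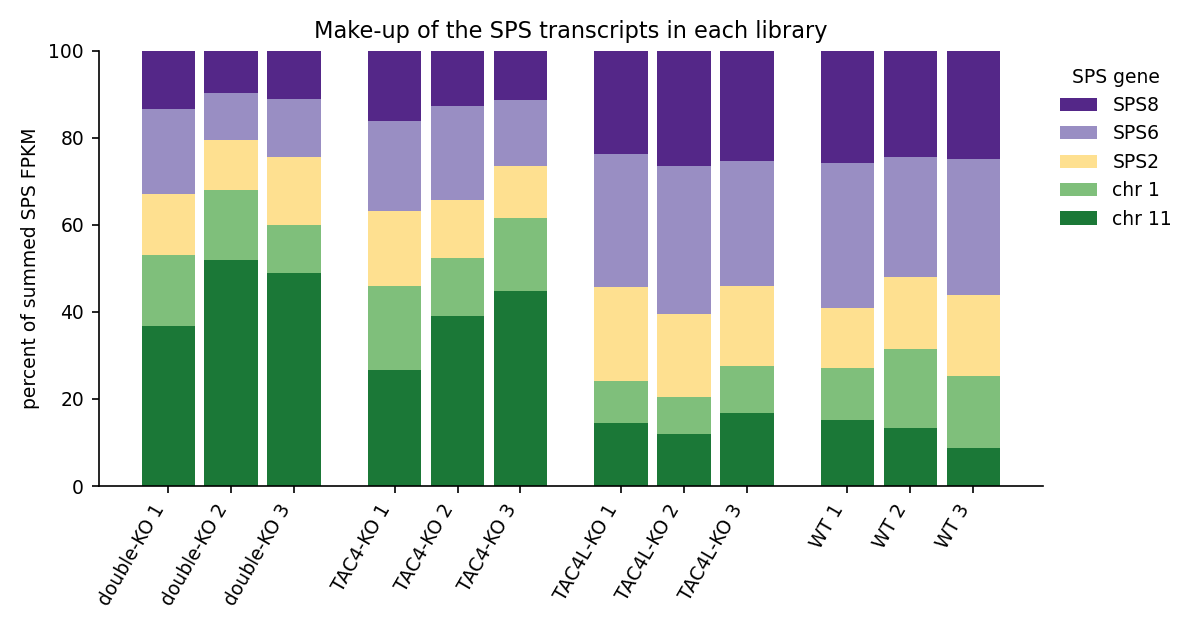
Share of each SPS gene in the summed SPS level (FPKM) of each library, in percent. The lowest segment, the chromosome 11 gene, takes 26.6 to 52.0% in double-KO and TAC4-KO libraries and 8.64 to 16.7% in TAC4L-KO and WT libraries.

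Summed over the 5 invertase and the 5 SPS genes, the balance of transcripts differed by group. The 5 invertase genes together had 15.7, 21.0 and 21.6 FPKM in double-KO replicates 1 to 3, 14.7, 27.4 and 20.7 FPKM in TAC4-KO, 125, 50.4 and 31.7 FPKM in TAC4L-KO, against 234, 177 and 714 FPKM in WT. Nearly all of this sum is CIN1 and the chromosome 2 vacuolar invertase, already described, since the other members each stayed under 1 FPKM in every library. CIN1 supplied 45.4 to 83.2% of the sum in WT, the most in replicate 3, where CIN1 alone had 594 FPKM. The 5 SPS genes together had 77.1, 96.8 and 69.9 FPKM in double-KO, 55.5, 58.6 and 82.1 FPKM in TAC4-KO, 42.9, 49.7 and 49.9 FPKM in TAC4L-KO, against 41.0, 52.8 and 40.3 FPKM in WT. The ratio of these 5 invertases to the 5 SPS genes was thus 0.204 to 0.309 in double-KO, 0.252 to 0.467 in TAC4-KO, 0.635 to 2.91 in TAC4L-KO and 3.35 to 17.7 in WT. With the 5 other listed cell wall invertases and the 8 listed neutral invertases added, 18 genes in all, the ratio was 2.60 to 3.19 in double-KO, 2.81 to 3.15 in TAC4-KO, 3.41 to 6.26 in TAC4L-KO and 6.46 to 23.6 in WT. The gap between double-KO and WT was thus smaller over all listed invertases, since the neutral invertases summed to 138 to 204 FPKM in double-KO and 96.0 to 199 FPKM in WT. These ratios were not tested, and they describe transcripts, not enzyme activity.

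**Figure D5:**
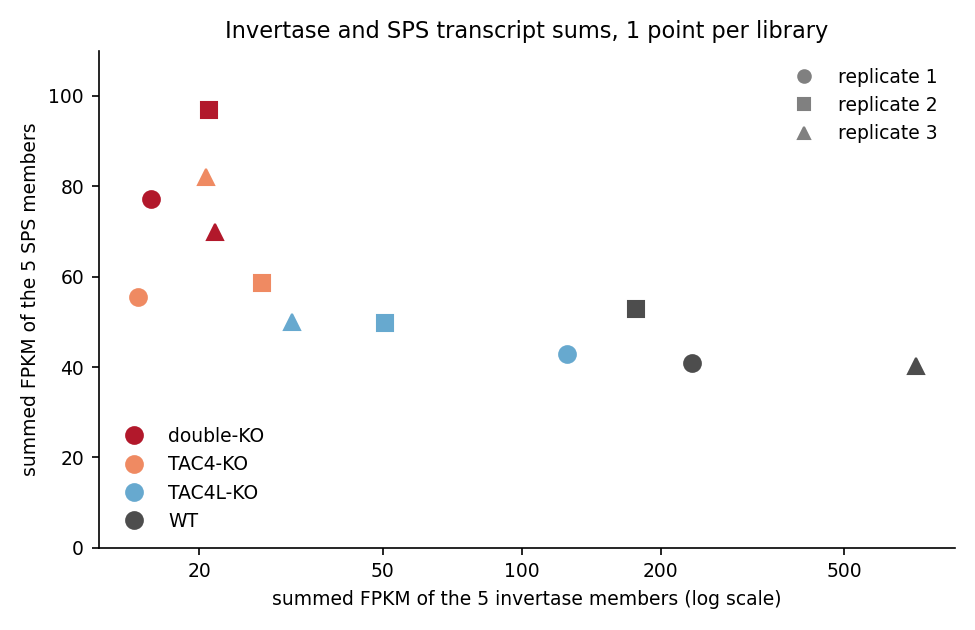
Summed FPKM of the 5 SPS genes (vertical axis) against summed FPKM of the 5 invertase genes (horizontal log axis), 1 point per library, coloured by group and shaped by replicate. The 6 libraries of double-KO and TAC4-KO hold 14.7 to 27.4 FPKM of invertases, and the 3 WT libraries hold 177 to 714.

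Between double-KO and TAC4-KO limma called 0 of the 7 tested genes, with 0 at an unadjusted p under 0.05, where 15.0% of all tested genes were called (4.88% higher and 10.1% lower). Double-KO differed from TAC4L-KO in 3 of 7 genes, 2 higher (the SPS genes on chromosomes 1 and 11) and 1 lower (the chromosome 2 vacuolar invertase), where 35.0% of all tested genes were called (11.6% higher and 23.4% lower). The vacuolar invertase change was -1.30 (SE 0.45, limma adjusted p = 0.042), which no longer passed under median-of-ratios or quantile scaling (-1.11 and -1.05), with no filter, in a fit of only the groups compared, and without TAC4L-KO replicate 1 or 2, any 1 of the TAC4-KO libraries or double-KO replicate 3 (-0.66 without the last).

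The other genes of sucrose metabolism were read from 8 lists of 42 loci, of which 32 passed the filter. In double-KO against WT, 12 were higher and 6 lower, where 20.1% and 27.3% of all tested genes were. Those 12 were 8 without double-KO replicate 2, 9 without WT replicate 1 and 15 under quantile normalization. In TAC4-KO against WT, 9 were higher and 4 lower, against 18.4% and 16.5% of all tested genes. Those 9 were 4 without TAC4-KO replicate 3, 5 without TAC4-KO replicate 1 and 5 in a fit of only the groups compared. In TAC4L-KO against WT, 1 was called, higher: the listed sucrose phosphatase LOC_Os05g05270, with 5.44 ± 1.38 FPKM in TAC4L-KO and 1.82 ± 0.439 in WT (SD, n = 3 each; log2 change 1.18, SE 0.22, limma adjusted p = 0.019). The call did not hold in a fit of only the groups compared, or when TAC4L-KO replicate 2 or 3 or WT replicate 3 was left out. The locus was picked after its values were seen.

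Other invertases did not share 1 direction. Of 5 other cell wall invertases, 2 were tested. CIN7 (LOC_Os09g08072) fell to 12.7 ± 2.47 FPKM in double-KO, against 35.7 ± 2.16 in WT (-1.44, SE 0.17, limma adjusted p = 9.4e-05), and CIN4 (LOC_Os01g73580) did not pass (0.61, limma adjusted p = 0.095). The CIN4 change passed, as a rise, under median-of-ratios and quantile scaling (0.7 and 0.77) and without WT replicate 2 (0.95). Of 8 listed neutral invertases, which split sucrose inside the cell but outside the vacuole, 7 were tested. In double-KO against WT 3 were higher and 4 lower, with a median change of -0.89 beside -0.10 over all tested genes, of which 20.1% were higher and 27.3% lower. LOC_Os02g03320 had 5.17 ± 0.822 FPKM in double-KO and 0.893 ± 0.32 in WT (1.71, SE 0.19, limma adjusted p = 5e-05). NIN3 (LOC_Os02g32730) had 2.78 ± 0.796 FPKM in double-KO and 8.77 ± 0.723 in WT (-1.39, SE 0.18, limma adjusted p = 0.00013).

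Of the 3 listed sucrose phosphatases, which act after SPS, 2 rose in double-KO and the third did not pass. SPP2 (LOC_Os02g05030) had 49.7 ± 4.54 FPKM in double-KO and 32.8 ± 3.1 in WT (0.58, SE 0.15, limma adjusted p = 0.007). SPP1 (LOC_Os01g27880) had 6.38 ± 0.736 FPKM in double-KO and 3.66 ± 0.617 in WT (0.67, SE 0.21, limma adjusted p = 0.021), which did not pass when double-KO replicate 2 or WT replicate 1 or 3 was left out.

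Both fructokinases, which phosphorylate the fructose that invertase and sucrose synthase release, rose in double-KO. FRK2 (LOC_Os08g02120) had 745 ± 402 FPKM in double-KO and 110 ± 15.9 in WT (2.58, SE 0.45, limma adjusted p = 0.00084). FRK1 (LOC_Os01g66940) rose by 2.01 (SE 0.58, limma adjusted p = 0.014), which did not pass when double-KO replicate 2 or WT replicate 1 was left out and was 2.66 without WT replicate 3. LOC_Os09g38030, listed as a UDP-glucose pyrophosphorylase, had 512 ± 149 FPKM in double-KO and 57.1 ± 4.4 in WT (3.11, SE 0.29, limma adjusted p = 2.5e-05). It was the 1 tested locus of 2 on that list.

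Of 8 tested hexokinases, which phosphorylate glucose, 3 were higher in double-KO, among them HXK4 (LOC_Os07g09890, 0.74, SE 0.16, limma adjusted p = 0.0033) and HXK9 (LOC_Os01g52450, 0.83, SE 0.21, limma adjusted p = 0.0066). Both were low, at 4.19 and 2.94 FPKM in double-KO and 2.1 and 1.2 in WT. The most abundant listed hexokinase, HXK6 (LOC_Os01g53930), picked for its level, had 146 ± 20.6 FPKM in double-KO and 143 ± 39.6 in WT. Its change did not pass (0.06, limma adjusted p = 0.85). Of 6 tested sucrose synthases, which split sucrose reversibly, 1 was higher in double-KO: SUS1 (LOC_Os03g28330), by 1.75 (limma adjusted p = 0.014), which did not pass when double-KO replicate 2 or 3 or WT replicate 2 was left out. SUS5 (LOC_Os04g24430) did not pass (-0.60, limma adjusted p = 0.085). Of 3 tested sucrose transporters, SUT2 (LOC_Os12g44380), known as a vacuolar membrane carrier, had 46.2 ± 5.0 FPKM in double-KO and 101 ± 4.58 in WT (-1.12, SE 0.16, limma adjusted p = 0.00024), and SUT4 (LOC_Os02g58080) did not pass (0.46, limma adjusted p = 0.15).

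Most markers of green tissue rose in the lines in which the chromosome 11 SPS was high. Of 13 green tissue markers, 10 were higher and 1 lower in double-KO, 11 were higher in TAC4-KO, and 0 were called in TAC4L-KO (3 at an unadjusted p under 0.05), each against WT by limma. The 1 called lower in double-KO was LOC_Os12g19381, a listed Rubisco small subunit. It had 2636.8 ± 694 FPKM in double-KO, 3765.6 ± 333 in TAC4-KO and 5397 ± 1961.8 in WT (SD, n = 3 each). Its double-KO change was -0.99 (SE 0.31, limma adjusted p = 0.019), so the sums mix rises and falls. The summed level of the 13 markers was 11095.9 to 13088.9 FPKM in double-KO, 14219.3 to 16004.9 in TAC4-KO, 7406.4 to 9395.2 in TAC4L-KO and 4740.7 to 10013.2 in WT, with 0 markers at 0 in all libraries of a group. Of 11 floral markers, 10 averaged under 1 FPKM in every group, 3 were at 0 in all libraries of double-KO, 4 in TAC4-KO, 5 in TAC4L-KO and 4 in WT, and the summed level was 78.7 to 112 FPKM in double-KO, 32.2 to 38.3 in TAC4-KO, 26.0 to 31.2 in TAC4L-KO and 18.7 to 35.1 in WT. Nearly all of that sum was MADS16 (LOC_Os06g49840), the 1 floral marker tested, with 96.5 ± 17.4 FPKM in double-KO, 33.3 ± 3.15 in TAC4-KO, 27.6 ± 2.28 in TAC4L-KO and 26.6 ± 8.15 in WT (SD, n = 3 each). It rose in double-KO against WT (1.85, SE 0.22, limma adjusted p = 8.1e-05). The part of these tissues in the invertase and SPS changes was not tested.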

How the data were processed

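RNA was measured in 12 culm libraries. Poly(A) RNA was fragmented and primed with random hexamers, per the labels' protocols. The authors deposited 1 table of FPKM values, and HISAT2 was used, per the submitters' processing notes. For the quantifier, build, annotation and strandedness the entry is: not given in the sources used here. So overlapping genes and close copies (CIN2 and CIN3 among them) remain uncertain. Depth was inferred from the spacing of low FPKM values, using 57 genes.

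Genes whose mean reached 1 FPKM were tested on log2(FPKM + 1), which understates changes of low genes, with limma 3.58.1 (R 4.3.3, trended prior, 12 libraries in 1 fit, 8 residual degrees of freedom), checked on simulated data. No 2 libraries held identical values. Replicate numbers did not pair the libraries, so the main fit has no block. Alternatives changed the pseudocount, filter, scaling, libraries in the fit and block, and left out each library.

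The members and lists were chosen with earlier results of these data known. The rule for naming took all 10 genes and at most 2 per further list, by the smallest p in double-KO against WT. Among the other sucrose genes, LOC_Os05g05270 and HXK6 were named outside this rule. Names were paired with loci from published rice nomenclature: the reference used here (symbols of assembly ASM3414082v1) holds 0 of 55986 identifiers, and 6 of the 10 genes have a symbol on the chromosome their locus states. The others are given by locus, and no sequences were used.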

Additional observations from a re-analysis of the deposited data

Results flagged for a closer look

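The chromosome 2 vacuolar invertase LOC_Os02g01590 differed in its change between libraries with and without the TAC4L label, depending on whether they also carried the TAC4 label. The change was 0.03 (SE 0.45) in double-KO against TAC4-KO and -2.71 (SE 0.45) in TAC4L-KO against WT, and the test of that difference gave an interaction of 2.74 (SE 0.64, limma adjusted p = 0.016). The single changes add up to about 0 FPKM on this scale, so any detected double-KO level gives a positive value. With a pseudocount of 0.1 the interaction was 2.75 (limma adjusted p = 0.031).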

How the results depend on the processing

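Across 7 comparisons, the 49 changes of single genes were recomputed 924 times under the alternatives. Of these, 891 kept their side of the threshold, 18 lost a call, 15 gained one and 0 calls changed sign. Among the 891 were 30 in which a change that was called neither way changed sign. The number of the 7 genes called in double-KO, TAC4-KO and TAC4L-KO against WT was 4, 3 and 1, and 3 to 5, 3 and 0 to 2 with 1 library left out. For TAC4-KO against TAC4L-KO it was 1, but 0 with no filter (4 at an unadjusted p under 0.05, limma) and 0 in a fit of only the groups compared (5 at an unadjusted p under 0.05, limma), 2 under median-of-ratios scaling, 2 under quantile normalization, and 0 to 2 with 1 library left out. The cause was not tested. With the replicate block the counts were unchanged in all 7 comparisons (4 in double-KO against WT). Same-numbered libraries did not deviate together, with correlations of -0.427 to 0.268.

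Scaling moved the median change of all tested genes by over 0.1 in some of the comparisons. Double-KO against WT had a median of -0.10 with deposited values and 0.08 with quantile normalization, and TAC4L-KO against WT had 0.10 with deposited values and -0.01 with median-of-ratios scaling. It also moved the share of calls that were lower, given here for deposited, median-of-ratios and quantile values in turn. That share was 57.6%, 51.0% and 44.4% for double-KO against WT. It was 48.8%, 64.8% and 51.5% for TAC4L-KO against WT. Against TAC4-KO, double-KO had 67.5%, 51.2% and 47.2%. Against TAC4L-KO, double-KO had 66.9%, 48.2% and 45.1%, while TAC4-KO had 44.9%, 34.8% and 38.7%. The interaction had 72.7%, 50.2% and 54.2%. TAC4-KO against WT moved little, with shares of 47.3%, 50.4% and 46.1% and medians of 0.04, 0.0 and 0.05. No called change of the 7 genes turned under either scaling. CIN2 and CIN3 rest on a few steps of the deposited values.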
